A study of Boechera gunnisoniana with 7 samples.

Results

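The apomictic initial cell (AIC) and the egg cell stand at the start and at the end of female gametophyte formation in *Boechera gunnisoniana*, a triploid plant that forms seeds without meiosis or fertilization of the egg. Transcript levels of both cell types were compared on 3 of the 7 arrays of the series, 2 of the AIC and 1 of the egg cell. Of the 21428 genes measured, those with both AIC values at least 2 log2 units above the egg cell value were taken as higher in the AIC, and those with both values at least 2 below it as lower. This gave 74 genes higher and 209 genes lower in the AIC. The 4 other arrays, of which 2 are from sporophytic nucellus, 1 from the central cell and 1 from synergid cells, were not part of this rule. Below they show where these genes were present and take the place of the egg cell array in a comparison of counts. They also enter the statistical fit (limma), where the nucellus pair gives part of the error.

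All cells came from untreated, greenhouse-grown plants of the same apomict and were cut from sections of fixed buds or flowers with a laser. Each array was hybridized with amplified RNA of a pool of such cells. For the egg cell, as for the other cells of the mature gametophyte, flowers had been emasculated before fixation, whereas the AIC and the nucellus came from young buds, so that cell type, stage and emasculation cannot be told apart. The study notes that pools of a cell type can hold small amounts of neighbouring cells, nucellus in the AIC pools and other gametophytic cells in the egg cell pool. RNA was hybridized to ATH1 GeneChips, whose probes were designed on *Arabidopsis thaliana* transcripts, so that a low value can also stand for a poor match between probe and *Boechera* transcript. Less RNA per cell and fewer cells of a type cannot be told apart in such pools. The egg cell has 1 array and therefore no replicate check, and nothing in the labels tells from how many plants a pool was taken.

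In sexual plants a spore mother cell of the ovule enters meiosis, and a reduced spore divides to form the gametophyte, in which egg, central and synergid cells differentiate. In diplosporous apomicts the AIC takes the place of the spore mother cell, omits or modifies meiosis, and gives an unreduced gametophyte. The embryo then arises from the unfertilized egg cell. Cell cycle regulators and meiotic genes are therefore the gene groups usually followed from the one cell to the other.

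The values deposited by the authors are on a log2 scale, and their median over all genes was 4.003 and 4.028 in the AIC, against 4.013 in the egg cell. A value was regarded as above background where it exceeded the level that separates present from absent calls of the study on that array, namely 4.97 and 5.01 for the AIC arrays and 4.94 for the egg cell array. By this cutoff 5678 and 5595 genes were above background on the AIC arrays, and 5835 on the egg cell array. The first AIC array correlated with the egg cell array at r = 0.843 over genes (Pearson), the second at 0.879, and both AIC arrays with each other at 0.907; genes are no independent replicates. The 18 hybridization control features averaged 9.90 and 9.25 on the AIC arrays, against 10.7 on the egg cell array. The 25S rRNA control feature had 12.8 and 12.9 on the AIC arrays, against 10.9 on the egg cell array. The 3′ probe set of the GAPDH control exceeded the 5′ one by 2.23 and 2.84 on the AIC arrays and by 2.75 on the egg cell array. For actin this excess was 2.40 and 2.61 in the AIC and larger in the egg cell, at 2.88, and for ubiquitin it was 1.75 and 1.83 in the AIC and 1.82 in the egg cell. The part of these differences in the results was not tested.

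The 74 higher genes are 0.345% of all genes, and the 209 lower genes are 0.975%. These shares are set by the rule and carry no test. The rule divides a continuum. The higher gene closest to the limit had a difference of 2.005 on the nearer AIC array and the first gene left out had 1.998, while 13 genes lay within 0.2 inside the limit and 26 within 0.2 outside it. Among the lower genes the corresponding distances were 2.002 and 1.997, with 46 genes just inside and 62 just outside. Both AIC arrays were at least 3 units from the egg cell array for 23 higher and 52 lower genes, and at least 4 units for 11 higher and 11 lower genes.

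**Figure D1:**
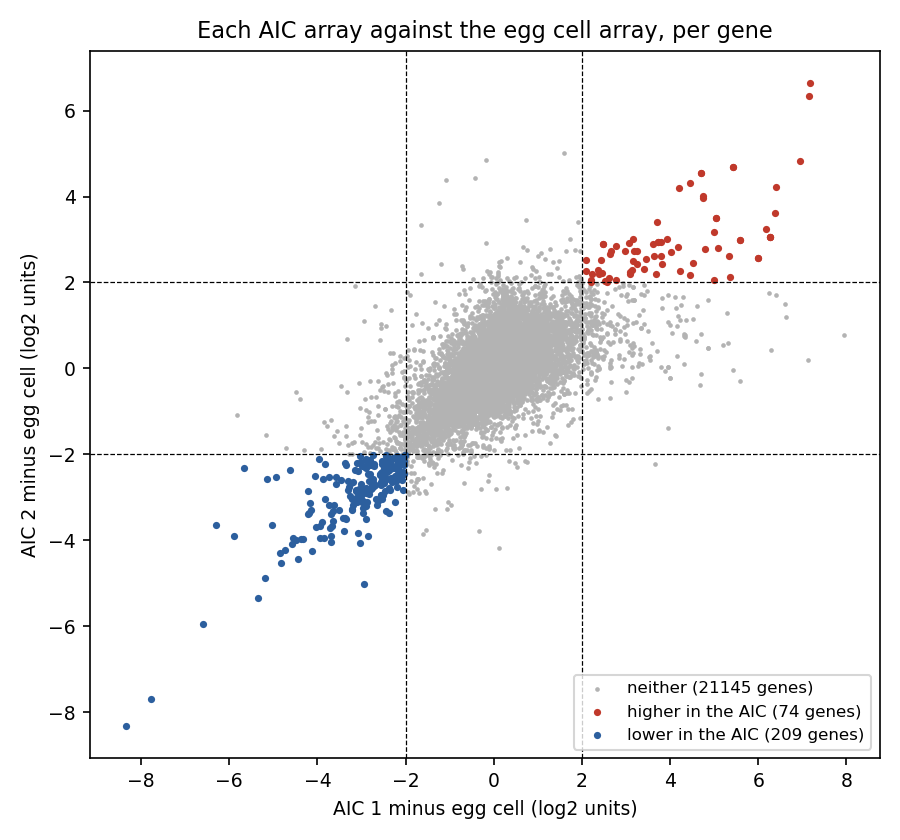
Difference of each gene between the first (x axis) and the second (y axis) AIC array and the egg cell array, in log2 units, with dashed lines at 2 units. The 74 higher genes lie in the upper right corner and the 209 lower genes in the lower left; many genes far to the right on the first AIC array lie below the line for the second.

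The AIC arrays were not equally far from the egg cell array. The first AIC array was at least 2 units above the egg cell array for 353 genes, and the second was so for 144 genes, so that the second array set most of the count of higher genes. For genes at least 2 units below the egg cell array the counts were 383 (first AIC array) and 291 (second). Between both AIC arrays themselves, 209 genes were at least 2 units higher and 123 at least 2 units lower on the first. The standard deviation of the difference over all genes was 0.608 between both AIC arrays, and against the egg cell array it was 0.794 with the first AIC array and 0.681 with the second. Among the 74 higher genes, 65 were farther from the egg cell on the first AIC array than on the second, and both AIC values differed by more than 1 unit for 29 genes. Among the 209 lower genes this gap exceeded 1 unit for 22 genes.

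No gene passed the threshold in limma, which took its error from the AIC and nucellus pairs (2 residual degrees of freedom) and assumed that the egg cell varies like them. At an adjusted p of 0.05, 0 of 21428 genes (0%) were called, with a lowest adjusted p of 0.139. At an unadjusted p of 0.05, 2146 genes passed, 749 of them higher and 1397 lower in the AIC. Of the genes chosen by the rule, 48 of the 74 higher and 186 of the 209 lower were among them, which is no separate evidence since rule and fit use the same contrast. After quantile normalization limma called 3 genes, 1 higher and 2 lower, each with an adjusted p of 0.0346, namely AT3G57690, AT3G26140 and AT1G07600, which are described below.

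The same limit was also applied to each of the other arrays in the place of the egg cell array. Both AIC arrays were at least 2 units above the first nucellus array for 24 genes and below it for 60. Against the second nucellus array the counts were 112 higher and 276 lower, which exceed those against the egg cell, although this array is of the tissue that surrounds the AIC. Against the central cell array 400 genes were higher and 18 lower, and against the synergid array 160 were higher and 83 lower. A count of this size can therefore arise against a single array of another tissue, and the egg cell counts have no second array to compare with.

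**Figure D2:**
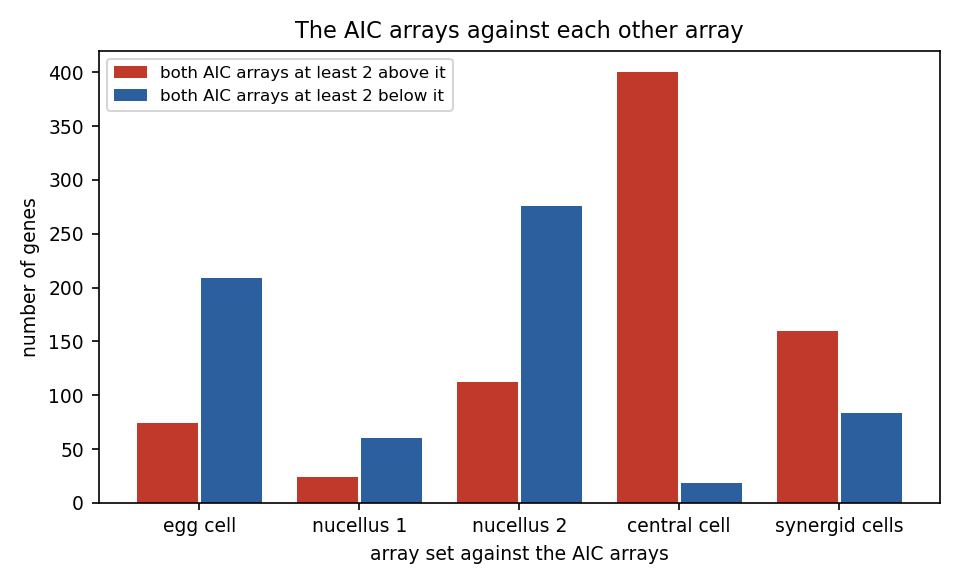
Number of genes (y axis) with both AIC arrays at least 2 log2 units above (red) or below (blue) each other array of the series (x axis). The egg cell gives 74 and 209 genes, between the counts of the first nucellus array, 24 and 60, and of the second, 112 and 276.

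The higher genes were mostly genes with a clear signal in the AIC and none above background in the egg cell. Of the 74, 73 were above background on both AIC arrays, 60 were at or below it on the egg cell array, and 59 met both conditions. Their median was 8.01 and 6.90 on the AIC arrays, against 4.20 on the egg cell array. On the nucellus arrays, which the rule did not use, their median was 7.65 and 6.94, and 55 of the 74 were above background on both. Above background on each nucellus array were 90.5% and 74.3%, against 26.6% and 24.4% of all genes. The central cell had a median of 5.15 with 29 genes above background (39.2%, against 13.9% of all genes). The synergid array had 5.05 with 33 (44.6%, against 19.4%). For comparison, the median of all genes was between 3.997 and 4.163 on these 4 arrays. Of the 74 genes, 5 were above background on none of these 4 arrays, a count for which no share of all genes was computed. Since the AIC pools can hold nucellus, the part of nucellus cells in these levels was not tested.

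**Figure D3:**
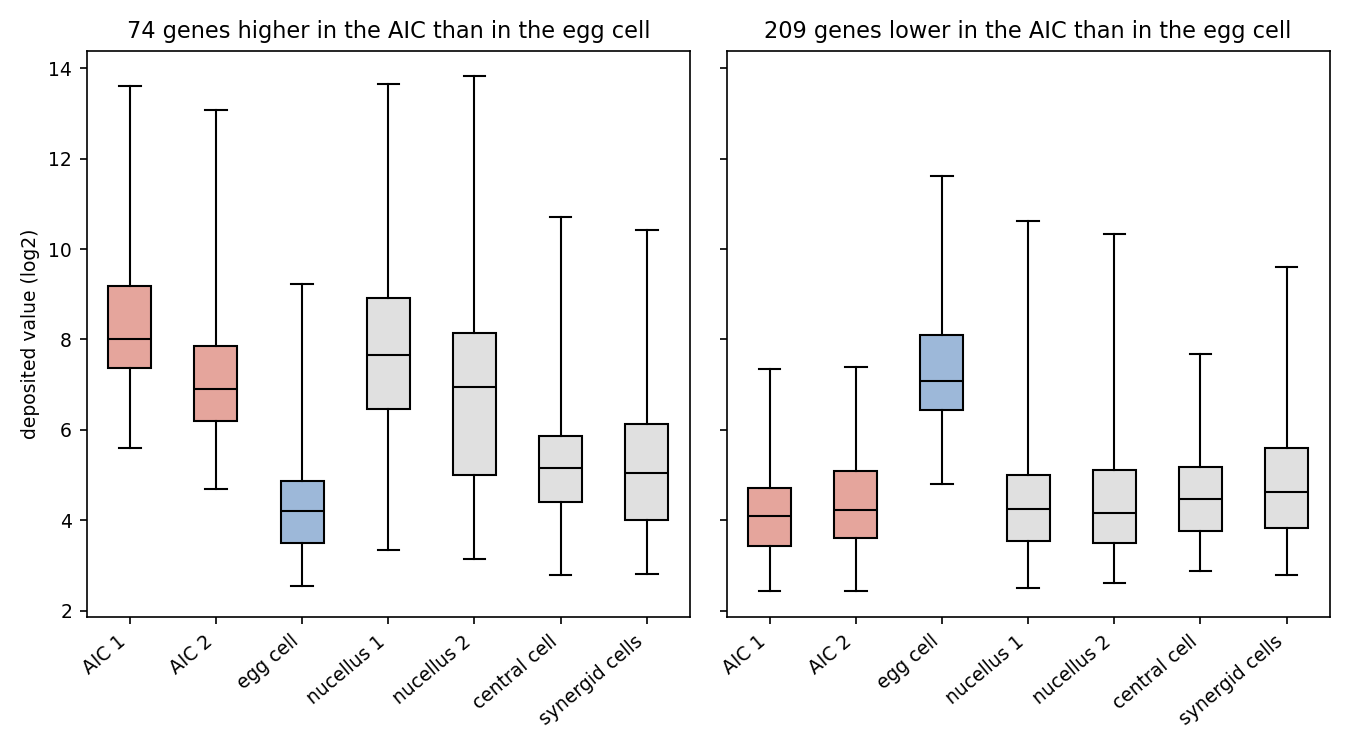
Deposited log2 values (y axis) of the 74 genes higher (left) and the 209 genes lower (right) in the AIC than in the egg cell, on each of the 7 arrays (x axis). Boxes give the median and quartiles and whiskers the lowest and highest gene; AIC arrays are red, the egg cell array is blue and arrays the rule did not use are grey, with both nucellus medians of the left panel, 7.65 and 6.94, near those of the AIC.

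The 4 arrays that were not part of the rule also contrast young ovule with mature gametophyte. They are no independent check of the higher genes, since AIC and nucellus both came from young buds and AIC pools can hold nucellus. Both nucellus arrays were at least 2 units above both the central cell and the synergid array for 18 of the 74 higher genes (24.3%). This held for 0.574% of all genes and for 1.67% of the 4657 genes above background on both AIC arrays, which were not matched to the 74 for level. Over all genes, 123 passed this limit upward and 5 downward. Without the size limit, both nucellus values lay above both gametophyte values for 45 of the 74 genes (60.8%) and for 14.2% of all genes. These counts include rows that share all their values, since the 74 rows hold 65 distinct sets of values. Both nucellus values lay below both gametophyte values for 2 of the 74. The median difference between the nucellus mean and the mean of the central cell and synergid arrays was 1.87 for the higher genes and -0.08 for all genes.

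For the lower genes the corresponding counts were small. Both nucellus arrays were at least 2 units below both gametophyte arrays for 3 of the 209 lower genes (1.44%), against 0.0233% of all genes and 0.0686% of the 5835 genes above background in the egg cell. Without the size limit both nucellus values lay below both gametophyte values for 74 of the 209 genes (35.4%), against 28.2% of all genes. Their median difference between nucellus and gametophyte arrays was -0.25. Counts of 3 and 4 genes underlie the first of these shares, and no test was made of them.

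Of the 209 lower genes, 208 were above background in the egg cell, and 147 were above background in the egg cell and on neither AIC array. Their median was 4.10 and 4.23 on the AIC arrays, against 7.08 on the egg cell array. On the other 4 arrays it lay between 4.16 and 4.64, close to the median of all genes. Above background were 39 in the central cell (18.7%, against 13.9% of all genes) and 65 in the synergid cells (31.1%, against 19.4%). On the nucellus arrays 26.3% and 25.8% were above background, against 26.6% and 24.4% of all genes, and 29 genes were so on both. For 104 of the 209 genes none of these 4 arrays was above background, a count for which no share of all genes was computed. Because the egg cell has a single array, a difference of the cell type and one of this array cannot be told apart.

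The files give an *Arabidopsis* locus identifier for each value and do not pair it with a gene name. Names and functions are given here only for genes that the study names, and the genes with the largest differences are therefore described by identifier. The gene farthest above the egg cell was AT3G57690, with 13.6 and 13.1 on the AIC arrays, against 6.44 on the egg cell array. It was as high on the nucellus arrays, at 13.7 and 13.8, and lower on the central cell array at 9.80 and the synergid array at 7.09. The AIC mean was 13.3 ± 0.37 (SD, n = 2), a difference of 6.91 from the egg cell, or 120-fold (limma, adjusted p = 0.139).

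The gene next to it was AT5G20710, with 10.8 and 10.0 in the AIC and 3.68 in the egg cell. The nucellus arrays gave 10.7 and 10.1, the central cell 5.50 and the synergid array 5.19, so that AIC and nucellus again lay together above all 3 gametophyte arrays. The AIC mean exceeded the egg cell value, which is below background, by 6.74 (limma, adjusted p = 0.155).

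The gene farthest below the egg cell was AT3G26140, with 3.29 and 3.31 on the AIC arrays, against 11.6 on the egg cell array. No other array reached it, the nucellus having 3.15 and 3.39, the central cell 5.02 and the synergid array 3.59. The difference was -8.32 (limma, adjusted p = 0.139), and its size is uncertain because both AIC values are below background.

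AT1G07600 showed another pattern, in which both AIC arrays had the lowest values of the series. It had 3.34 and 3.42 on the AIC arrays, against 11.1 on the egg cell array. The nucellus arrays, from the tissue next to the AIC, had 10.6 and 10.3, and the synergid array had 7.52 and the central cell 5.28. The AIC values are below background, as is the central cell value, for which the cutoff was 5.59. The difference from the egg cell was -7.73 (limma, adjusted p = 0.139).

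Loci of the mitochondrial genome stood out among the higher genes by their number. Mitochondria carry a small genome of their own, which encodes part of the respiratory chain, of the ATP synthase and of the mitochondrial ribosome. In the identifier scheme of *Arabidopsis*, 77 of the loci measured belong to this genome. Of these, 10 (13.0%) were higher in the AIC and 1 was lower, whereas of 21348 nuclear loci 64 (0.300%) were higher and 208 (0.974%) lower. Without the second AIC array 19 mitochondrial loci were higher, and without the first the count was 10. None of the 3 loci of the plastid genome passed the rule. The identifiers do not say which proteins these loci encode.

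The 10 higher mitochondrial loci lay between 7.37 and 12.3 in the first AIC sample and between 6.17 and 12.2 in the second. On the egg cell array they lay between 2.87 and 9.23, and 9 of the 10 were at or below background. The 2 AIC arrays differed on them, since 9 of the 10 were higher on the first and the gap exceeded 2 units for 4 loci, with a largest gap of 3.42. Their median was 9.17 and 6.63 on the AIC arrays, against 3.87 on the egg cell array. The nucellus arrays had a median of 7.22 and 6.97, the central cell 5.79 and the synergid array 4.78.

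The rows of the table are not all separate measurements. Of these 10 rows, 9 share their values on all 7 arrays with a nuclear locus of chromosome 2, where the *Arabidopsis* nuclear genome carries a copy of mitochondrial DNA, and 1 pair of mitochondrial rows is also identical. Whether *Boechera* carries such a nuclear copy is not given in these sources. The signals of both loci that share values cannot be told apart in such rows. The 10 mitochondrial and 8 nuclear rows concerned hold 9 distinct sets of values, so that the 74 higher genes correspond to 65 distinct sets, 56 of them nuclear only. The 209 lower genes all have distinct values. The single mitochondrial row of the 10 that shares its values with no nuclear locus, ATMG00580, was also the brightest, with 12.3 and 12.2 in the AIC and 9.23 in the egg cell.

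Above background on at least 1 of the 3 arrays were 36 mitochondrial loci, and 25 of them did not pass the rule. Of these 25, 17 had both AIC values above the egg cell value and 5 had both below it. Some of the 25 rows share all their values with another of them, so they are not all separate measurements. Over all genes, both AIC values lay above the egg cell value for 35.8% and below it for 32.4%. Among nuclear genes above background on at least 1 of the arrays and not past the rule, these shares were 38.2% and 32.8%. The median difference between AIC and egg cell was 0.90 for the 25 loci and 0.08 for the 7155 nuclear genes that were above background on at least 1 of the arrays and did not pass the rule. For the second AIC array alone the median difference of the 25 loci was 0.26, against 0.93 for the first. Over all 36 loci the median was 7.27 and 5.85 in the AIC and 4.67 in the egg cell. The nucellus arrays, at 5.28 and 5.34, did not stand above the central cell at 5.55 and the synergid array at 5.36 for these 36 loci. The 1 lower mitochondrial locus, ATMG00850, had 3.08 on both AIC arrays, against 7.02 on the egg cell array, and lay between 2.83 and 3.23 on the other 4 arrays. The 25S rRNA feature was lower on the egg cell array than on the other 6, and it was highest on the central cell array, at 13.1, where the 10 loci had a median of 5.79. The part of the overall level of abundant RNA in these values was not tested.

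**Figure D4:**
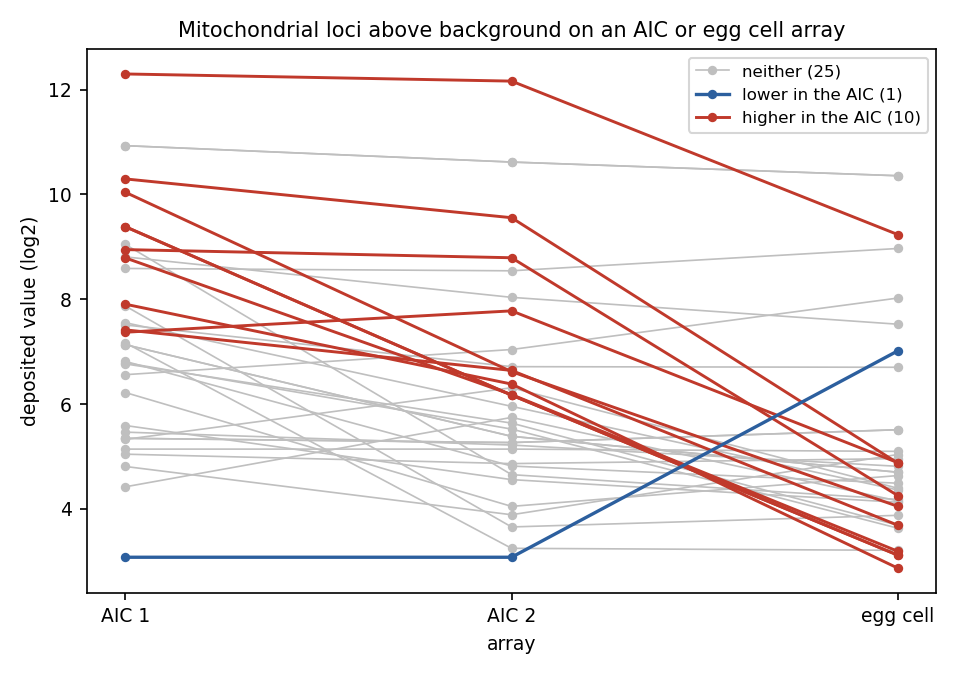
Deposited log2 values (y axis) of the 36 mitochondrial loci above background on an AIC or the egg cell array, with 1 line per locus across the 3 arrays (x axis). The 10 higher loci (red) lie at 6.17 or above on both AIC arrays and all but 1 lie below 5 on the egg cell array; the 1 lower locus is blue.

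A list of 66 genes of the study was followed, mainly regulators of the cell cycle, meiotic genes and genes tested by in situ hybridization. The main text of the study gives identifiers for only part of them, and 56 of the 66 are on the array. None of the 56 was higher in the AIC by the rule, where 0.345% of all genes were, and 2 were lower, *E2FA* and *CYCA2;2*, where 0.975% of all genes were. After quantile normalization *E2FA* did not pass the rule. Both AIC values lay above the egg cell value for 21 of the 56 genes and below it for 18, against 35.8% and 32.4% of all genes. The median difference over the 56 genes was -0.01. Most were weak, as most nuclear loci were. Above background on at least 1 of the 3 arrays were 20 of the 56, against 7426 of the 21348 nuclear loci. On all 3 arrays 3 of the 56 were above background. The study chose some of these genes because they differed in presence calls between its AIC and *Arabidopsis* spore mother cell data, so that the list is not an independent sample of cell cycle genes.

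*CYCA2;2* encodes an A2-type cyclin, a class that acts from S phase to mitosis. It had 4.10 and 3.73 on the AIC arrays, against 6.66 on the egg cell array. The AIC values are below background and the egg cell value is well above it. The egg cell was also the highest of all arrays, as the nucellus had 3.85 and 4.16, the central cell 4.37 and the synergid array 4.73. The AIC mean was 3.92 ± 0.26 (SD, n = 2), a difference of -2.75 from the egg cell (limma, adjusted p = 0.183).

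*E2FA* encodes an activating transcription factor of the E2F family, which turns on genes for the entry into S phase. It had 4.47 on both AIC arrays, against 6.49 on the egg cell array. The nucellus had 4.70 and 4.15, the central cell 4.93 and the synergid array 4.12, so that the egg cell was again the only array above background. The difference of -2.02 lies next to the limit of the rule (limma, adjusted p = 0.267), and it was -1.87 after quantile normalization, which no longer passes the rule.

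The 3 other E2F family members did not separate the cells. *E2FC*, known as a repressor of the family, was well above background on all 3 arrays, with 6.76 and 6.31 in the AIC and 6.53 in the egg cell. *E2FB*, a second activator, had 3.40 and 3.48 in the AIC and 3.45 in the egg cell, all below background. *DEL2*, an atypical member, had 3.86 and 3.67 in the AIC and 3.86 in the egg cell. Of 4 members, therefore, 1 was lower in the AIC by the rule and none higher.

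D-type cyclins, which link growth signals to the start of the cell cycle, were near or below background in both cells. None of the 6 passed the rule. *CYCD3;1* had 3.12 and 5.05 in the AIC and 3.08 in the egg cell, so that the second AIC array alone was raised. *CYCD4;1* had 3.06 and 3.05 in the AIC, against 4.09 in the egg cell, without reaching background on any of the 3 arrays. The 4 others differed from the egg cell by at most 0.37 in the mean.

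Among the other A- and B-type cyclins, the 5 that are on the array besides *CYCA2;2* did not pass the rule. *CYCB1;1*, a mitotic cyclin, had 3.89 and 6.24 in the AIC and 3.73 in the egg cell, and the spread between the AIC arrays exceeds the mean difference of 1.33. *CYCB1;3* had 4.92 and 5.26 in the AIC and 4.98 in the egg cell, values that overlap. *CYCA3;4*, a cyclin of S phase, had 4.83 and 4.89 in the AIC and 4.60 in the egg cell, all below background.

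None of the cyclin-dependent kinases, their activators and their inhibitors on the list passed the rule. *CDKD1;3*, a kinase that activates other cyclin-dependent kinases, had 5.90 and 4.27 in the AIC and 3.99 in the egg cell, with only the first AIC array above background. *CDKE;1* had 4.36 and 4.23 in the AIC, against 5.15 in the egg cell, and *CDKC;1* had 4.75 and 4.34, against 5.36. Both kinases are known for roles in transcription, and both were above background in the egg cell and below it in the AIC, with mean differences of -0.86 and -0.81. *WEE1*, an inhibitory kinase of the DNA replication checkpoint, had 4.88 and 5.28 in the AIC and 5.16 in the egg cell. Of the inhibitors, *SIM*, linked to endoreduplication, had 4.72 and 4.21 in the AIC, against 5.17 in the egg cell. The 4 *KRP* genes on the array differed by at most 0.32 and were below background on all 3 arrays.

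Proteins of the replication origin and of the replication fork gave no call in the 6 genes measured. *PCNA2*, the sliding clamp of DNA polymerase, was the brightest of the 56 genes, with 7.77 and 8.75 in the AIC and 8.43 in the egg cell. Its level was 7.36 and 2.98 on the nucellus arrays, 4.53 in the central cell and 3.42 on the synergid array. *PCNA1*, encoding the same clamp, had 5.35 and 5.13 in the AIC, above background, against 4.42 in the egg cell, below it. Of the 4 subunits of the origin recognition complex, *ORC4*, *ORC5* and *ORC6* had both AIC values above the egg cell value, by 0.56, 0.50 and 0.81 in the mean, but all 4 subunits were below background in both cells.

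The remaining mitotic regulators gave no difference by the rule. *CCS52B*, an activator of the anaphase-promoting complex, had 4.74 and 6.23 in the AIC and 4.98 in the egg cell. *CCS52A1*, a related activator, had 3.28 and 3.74 in the AIC, against 4.12 in the egg cell. *HINKEL*, a kinesin of cytokinesis, had 3.75 and 4.32 in the AIC and 4.09 in the egg cell, and the values overlap.

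Meiotic genes, which act in the spore mother cell of sexual plants, were mostly weak on both AIC arrays. Of the 10 on the array, none passed the rule, 3 had both AIC values above the egg cell value and 5 had both below it. *REC8*, the meiotic cohesin subunit, had 5.94 and 3.78 in the AIC and 3.40 in the egg cell, and the first AIC array alone was above background. *DMC1*, the meiotic recombinase, had 4.81 and 4.12 in the AIC and 3.49 in the egg cell, all below background. *SDS*, a meiotic cyclin, had 5.01 and 3.69 in the AIC and 4.03 in the egg cell. *TAM*, an A-type cyclin of meiotic progression, had 5.48 and 4.55 in the AIC and 5.01 in the egg cell, so that the egg cell lay between both AIC arrays. *ASY1*, a protein of the meiotic chromosome axis, had 3.23 on both AIC arrays and 3.18 in the egg cell. *MSH4*, *SPO11-2* and *MPS1*, with roles in crossover formation, in the formation of double-strand breaks and in spindle organization, were below background on all 3 arrays. The RNA sequencing of the study detected its selected meiotic and spore mother cell genes in the AIC, except *SWITCH*/*DYAD* and *SPO11-2*. Most of them were very low there.

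**Figure D5:**
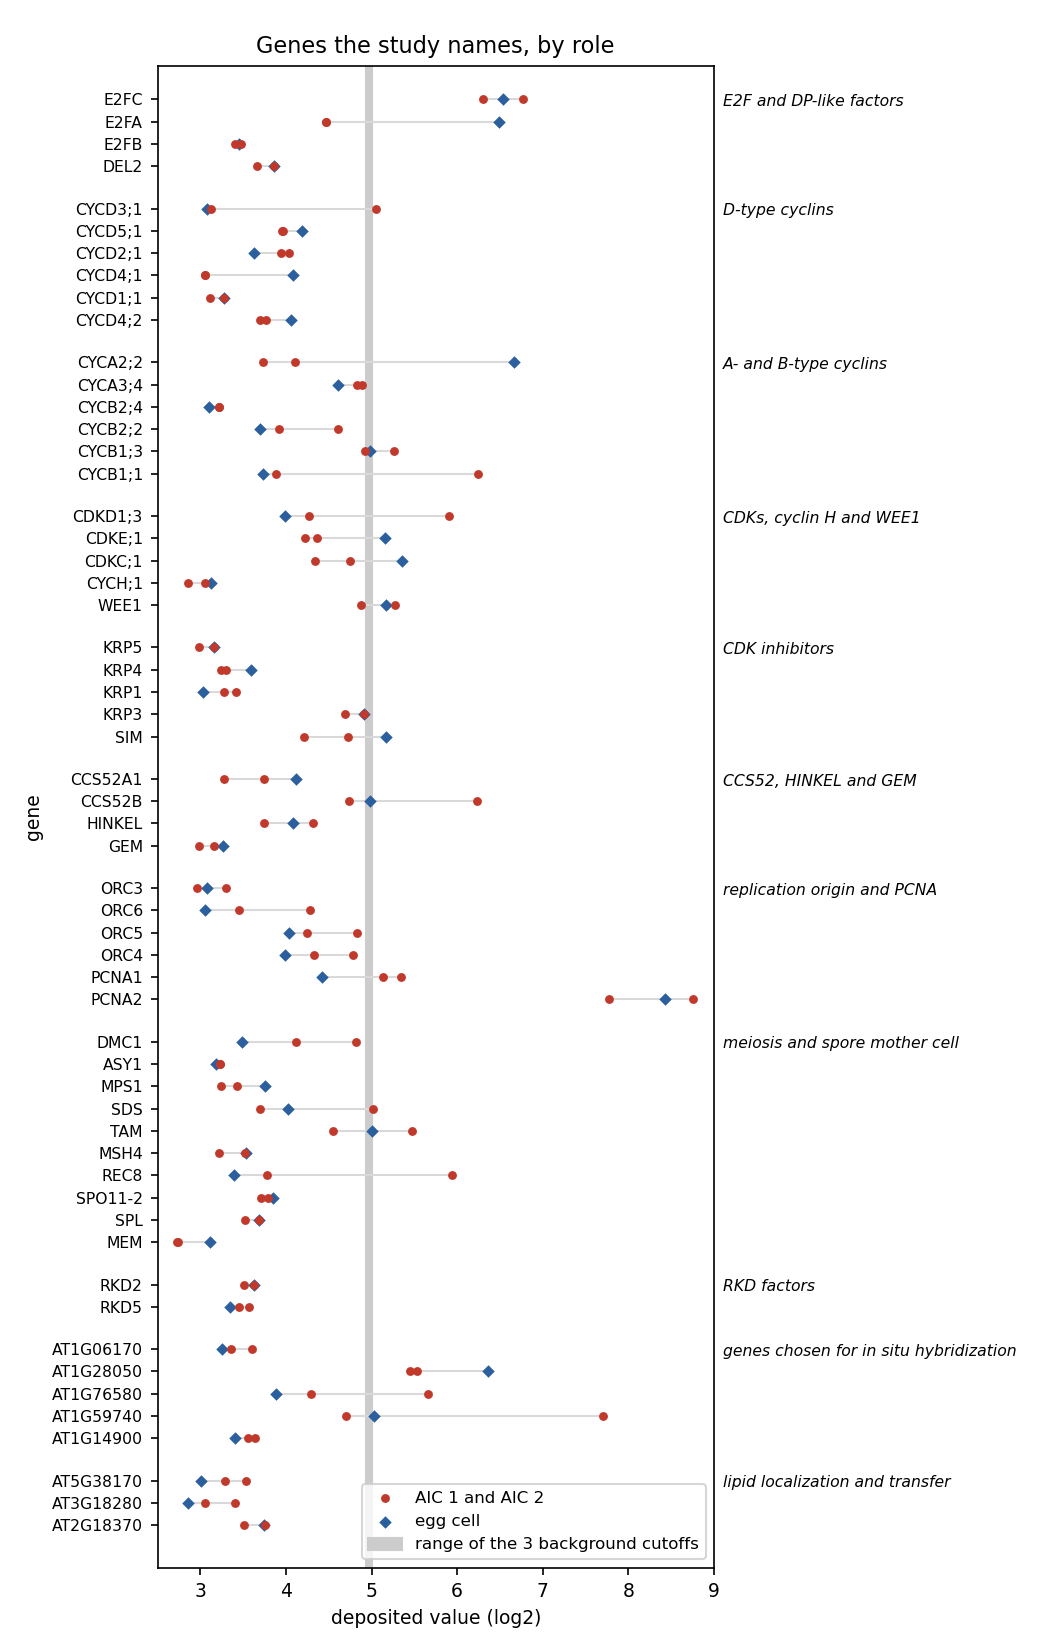
Deposited log2 values (x axis) of the 56 genes named by the study (y axis, grouped by role) on both AIC arrays (red circles) and the egg cell array (blue diamonds); the grey band spans the background cutoffs of 4.94 to 5.01. *E2FA* and *CYCA2;2* are the only genes with the egg cell more than 2 units away from both AIC arrays, and most other points lie left of the band.

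The labels of both cell types could be checked on few markers. *RKD2* and *RKD5* belong to a family of transcription factors known for its role in egg cell identity. *RKD2* had 3.51 and 3.63 in the AIC and 3.63 in the egg cell, and *RKD5* had 3.45 and 3.57 in the AIC and 3.34 in the egg cell. Neither was above background on these arrays, so these 2 defining markers do not distinguish the egg cell array from the AIC arrays. The RNA sequencing of the study found the *Boechera* homologues of *RKD* genes expressed in egg and synergid cells. Low array values of *RKD2* and *RKD5* therefore say little about the label of the egg cell array. The 3 other members of the family are not among the genes measured here. For the AIC, the spore mother cell gene *SPL* had 3.69 and 3.52, against 3.69 in the egg cell, and *MEM*, an RNA helicase gene of the spore mother cell, had 2.73 on both AIC arrays, against 3.12 in the egg cell. *SPL* and *MEM* too were below background throughout. In the RNA sequencing of the study *MEM* was low in the AIC and higher in the egg cell, so it could not serve to mark the AIC here.

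The study tested 5 genes by in situ hybridization on ovules with the AIC, and it reports enriched expression in the AIC for all 5. That enrichment was seen on ovule sections and is no comparison with the egg cell. AT1G59740, an oligopeptide transporter, had 7.70 and 4.71 in the AIC and 5.03 in the egg cell, and the AIC values overlap with the egg cell value. The study itself calls this gene present on the second AIC array, where its value lies below the cutoff used here. It had 7.61 and 8.84 on the nucellus arrays, 4.90 in the central cell and 3.51 on the synergid array. AT1G76580, a transcription factor with an SBP domain, had 4.29 and 5.66 in the AIC and 3.88 in the egg cell. AT1G28050, *B-BOX DOMAIN PROTEIN 13*, was above the cutoffs on all 3 arrays, with 5.53 and 5.45 in the AIC, against 6.36 in the egg cell. This difference of -0.87 is larger than the gap between both AIC arrays, although the egg cell has no replicate. AT1G06170, a bHLH protein, and AT1G14900, an HMGA protein, were below background on all 3 arrays, as were the 3 lipid transfer or lipid localization genes that could be measured. On the nucellus arrays AT1G76580 had 4.39 and 4.52, AT1G28050 5.53 and 5.52, AT1G06170 5.56 and 4.62, and AT1G14900 3.37 and 3.44. The study also calls AT1G06170 and AT1G14900 absent on the AIC arrays, yet it counted reads of both in its sequenced AIC sample. A value below background on these arrays is therefore no evidence that a gene is silent in the AIC.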

How the data were processed

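The authors collected *B. gunnisoniana* cells by laser-assisted microdissection, amplified the RNA and hybridized it to ATH1 arrays with probe sets grouped by *Arabidopsis* locus. They deposited log2 values, 1 per locus and array. The methods name RMA for the log2 values of heatmaps, and how the deposited table was normalized is not given in these sources. Values were used as deposited, without the 64 control features of 21492. 0 columns of other samples were present.

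Background cutoffs were read from the first 1999 rows of the study's table of present calls, at its limit of 0.02, without any set test on them. limma 3.58.1 (R 4.3.3; lmFit, eBayes, 1 mean per group, all 7 arrays, Benjamini-Hochberg) was checked on simulated arrays. Arrays have no read depth, and their number limits the precision. Where nothing says that pools came from separate plants, p-values measure only the spread between arrays, which may be technical. Other steps used Python 3.11.15, numpy 2.4.6 and pandas 2.3.3.

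The comparison, the gene rule and the gene lists were chosen with earlier results of these data known. Names are those of the study. Named by rule are the genes with the largest differences that the study names, at most 2 unnamed loci in each direction, and the list of genes of the study. Mitochondrial loci, including both that are given by identifier, were singled out after their values were seen. Further gene lists and cell type markers that had been planned were not used, because the files do not annotate their loci. Alternatives were other limits of the rule, quantile normalization, median centring, filters on low values, other sets of arrays, a replicate block, a trended prior and each replicate left out.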

Additional observations from a re-analysis of the deposited data

How the results depend on the processing

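The counts of 74 higher and 209 lower genes became 425 and 831 at a limit of 1 unit, 168 and 410 at 1.5 units, and 23 and 52 at 3 units. Taking the mean of the AIC arrays gave 169 higher and 295 lower genes. Without 1 of the AIC replicates the counts were 144 to 353 higher and 291 to 383 lower, the larger ones without the second AIC array, and the count of higher mitochondrial loci was 10 to 19. Quantile normalization gave 68 higher and 180 lower genes, and median centring 72 and 210. Counting rows with the same values once, an alternative chosen after seeing the data, gave 65 and 209. limma called 0 genes with the replicate block, in which arrays with the same number shared a term, and 0 under the other alternatives except quantile normalization, which gave 1 higher and 2 lower genes. The replicate numbers do not pair the samples by the labels, and the differences between replicates 1 and 2 of AIC and nucellus correlated at 0.03 across genes. For the higher genes with the nucellus at least 2 above the gametophyte arrays, the count of 18 became 25 and 30 without 1 of the nucellus replicates, and for the lower genes the count of 3 became 3 to 4. Of 60 named genes, the sign of the difference changed for 9 without the first and for 3 without the second AIC array, none of them past the rule. Array data have no depth, and below the cutoffs near 5 a difference between samples was not detectable from background.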
